A study of Mus musculus with 6 samples.

Results

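Genes that work in dividing cells were followed in DU145 tumours, 24 genes of DNA replication and 25 genes of mitosis. DU145 is a human prostate cancer line. The 49 genes were taken by symbol from the human table, which holds 58884 named genes, of which 18820 were tested. All 49 members were found and all passed the filter on low counts. The human table stands for the tumour cells and a second table for the mouse host of the same tumours.

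The groups were 3 tumours of mice given Zelnorm and 3 tumours of control mice. In both groups DU145 cells had been injected under the skin of male nude mice, which lack a normal thymus and keep B and natural killer cells. Mice were randomized when tumours were palpable. Zelnorm is the trade name of tegaserod, a serotonin receptor agonist, and was dosed by mouth each day in an amount the labels do not state. The sources used here give neither the ages of the mice nor a vehicle for the control mice. The titles of the Zelnorm samples carry MBZ with no meaning given, and the groups are used as the treatment label names them. Libraries are called by their columns, MBZ_254, MBZ_257 and MBZ_259 for Zelnorm and NC10, NC4 and NC9 for control. Since animals are not named in the labels, p-values measure only the spread between these samples, which may be technical.

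The human table held 24495337 to 39102731 counts per library, and between 5798713 and 9185239 counts were in the mouse table. Levels are in CPM, counts scaled to the same library total over the tested genes of one table, with TMM normalization factors. Summed marker levels were scaled to the total of all named genes, without these factors. Of the 6 epithelial markers all were measured in the human table, with summed levels of 4652 to 5100 CPM in Zelnorm tumours and 3958 to 4923 CPM in control tumours. The luminal prostate markers KLK2, KLK3 and FOLH1 did not pass the filter on low counts, and FOLH1 had no count. The 15 host cell markers, read in the human table, summed to 339 to 1181 CPM in Zelnorm tumours and 789 to 1543 CPM in control tumours. Most of that was collagen, and COL1A1 had 787, 223 and 592 CPM in Zelnorm tumours against 510, 919 and 489 CPM in control tumours. The fat marker ADIPOQ, the T cell marker CD3E and the globin HBA1 did not pass the filter. The other 12 were tested, among them the muscle gene MYH4. Its human counts were 0, 0 and 2239 in MBZ_254, MBZ_257 and MBZ_259, against 107, 907 and 694 in NC10, NC4 and NC9. The mouse Myh4 counts were 0, 4 and 10579 in the Zelnorm tumours, against 531, 3985 and 2757 in the control tumours. The part of host RNA in the human values was not tested.

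A dividing cell copies its DNA in S phase and separates the copies in mitosis. Before S phase, ORC1, CDC6 and CDT1 load the MCM helicase onto origins, CDC45 and the GINS complex switch it on, and polymerases and the PCNA clamp copy the strands. In late G2 and mitosis, CDK1 with its B-type cyclins, Polo-like and Aurora kinases, kinesin motors and the spindle checkpoint condense, align and separate the chromosomes. Replication genes are largely driven by E2F factors through E2F elements, and mitosis genes by the MuvB complex with B-MYB and FOXM1 and by NF-Y, through CHR elements and CCAAT boxes. In cultures held in mitosis, transcripts of the mitotic set are high relative to those of S phase, whereas fewer cycling cells carry less of both. In bulk tumours, fewer cells of a type and less RNA per cell cannot be told apart.

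Promoter elements of both sets are shown on mouse genes of the same symbol, since mouse promoters are the ones held here. Several of these mouse genes lay lower in the Zelnorm tumours (described further on). The genes printed all hold a match, and the share of each set with a match follows. The sequences are the 250 bases before the RefSeq start in GRCm38.p6, 5′ to 3′ on the gene's strand. Capitals mark matches on either strand. The CHR element was searched as TTTGAA, with TTCGAA as its second form in the same search. The CCAAT box was searched by the letters of its name, and the E2F element as TTTCCCGC, TTTCGCGC, TTTGCCGC or TTTGGCGC. Mki67 (chr7:135716380-135716629, minus strand) and Ccnb2 (chr9:70421555-70421804, minus strand) stand for the mitosis set. Cdc6 (chr11:98907901-98908150, plus strand) and Mcm6 (chr1:128359706-128359955, minus strand) stand for the replication set.
Mki67: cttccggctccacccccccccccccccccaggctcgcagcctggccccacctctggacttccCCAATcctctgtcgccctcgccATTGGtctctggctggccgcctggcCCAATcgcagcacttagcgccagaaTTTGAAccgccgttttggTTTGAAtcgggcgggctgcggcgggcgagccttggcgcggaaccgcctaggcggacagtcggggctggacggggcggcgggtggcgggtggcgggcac
Ccnb2: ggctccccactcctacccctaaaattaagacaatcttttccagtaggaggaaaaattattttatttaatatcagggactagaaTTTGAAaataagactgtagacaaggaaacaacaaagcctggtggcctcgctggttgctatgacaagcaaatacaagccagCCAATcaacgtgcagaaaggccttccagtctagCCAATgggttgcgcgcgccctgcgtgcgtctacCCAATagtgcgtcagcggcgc
Cdc6: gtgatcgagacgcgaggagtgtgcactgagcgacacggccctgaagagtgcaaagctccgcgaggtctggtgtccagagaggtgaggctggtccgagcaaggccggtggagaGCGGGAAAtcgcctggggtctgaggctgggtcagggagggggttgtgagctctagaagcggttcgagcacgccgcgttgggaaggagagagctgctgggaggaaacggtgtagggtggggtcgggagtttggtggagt
Mcm6: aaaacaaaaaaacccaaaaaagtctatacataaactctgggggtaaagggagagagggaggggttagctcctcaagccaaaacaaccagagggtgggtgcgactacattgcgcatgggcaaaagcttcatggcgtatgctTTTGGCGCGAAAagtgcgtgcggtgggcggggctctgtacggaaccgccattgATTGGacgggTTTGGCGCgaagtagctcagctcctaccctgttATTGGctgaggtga

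A promoter was found for the mouse gene of 20 replication and 21 mitosis members, 1 window a gene. E2F elements stood in 7 of the 20 replication promoters (35.0%), in 1 of the 21 mitosis promoters (4.76%), and in 1.91% of all 27025 promoters. CCAAT boxes stood in 18 of the 21 mitosis promoters (85.7%) and 13 of the 20 replication promoters (65.0%), against 34.5% of all promoters. CHR elements stood in 8 of the 21 mitosis promoters (38.1%) and 5 of the 20 replication promoters (25%), against 17.4% of all. In the Mcm6 sequence 2 E2F elements, 1 on each strand, overlap near its middle, and another lies nearer the start. In the Mki67 sequence 2 CHR elements follow 3 CCAAT boxes. A match is a description of these letters and not a bound site.

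In the tumour cells neither set moved beyond the spread between tumours. Of the 24 replication genes 16 had a log2 fold change (Zelnorm over control) below 0 and 8 above 0, with a median of -0.03. Of the 25 mitosis genes 23 were below 0 and 2 above 0, with a median of -0.08. Over all tested human genes 50.9% were below 0, with a median of -0.0024. The standard errors (SE) of single genes were larger than most of these changes, with a median SE of 0.14 in the replication set and 0.15 in the mitosis set. The change was smaller than its own SE in 24 of 24 replication genes and 22 of 25 mitosis genes.

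No member passed edgeR's quasi-likelihood test at an adjusted p under 0.05, and 0 of all 18820 human genes did (0%). At an unadjusted p under 0.05 there were 0 members, against 247 genes or 1.31% of all. DESeq2 called 1 human gene (0.00531% of all), which was no member, and limma-voom called 0 (0%). Of the 49 members 0 had Zelnorm and control groups that did not overlap, against 2.31% of all genes on the lower and 2.52% on the higher side. The adjusted p of each member named below was 1.00.

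**Figure D1:**
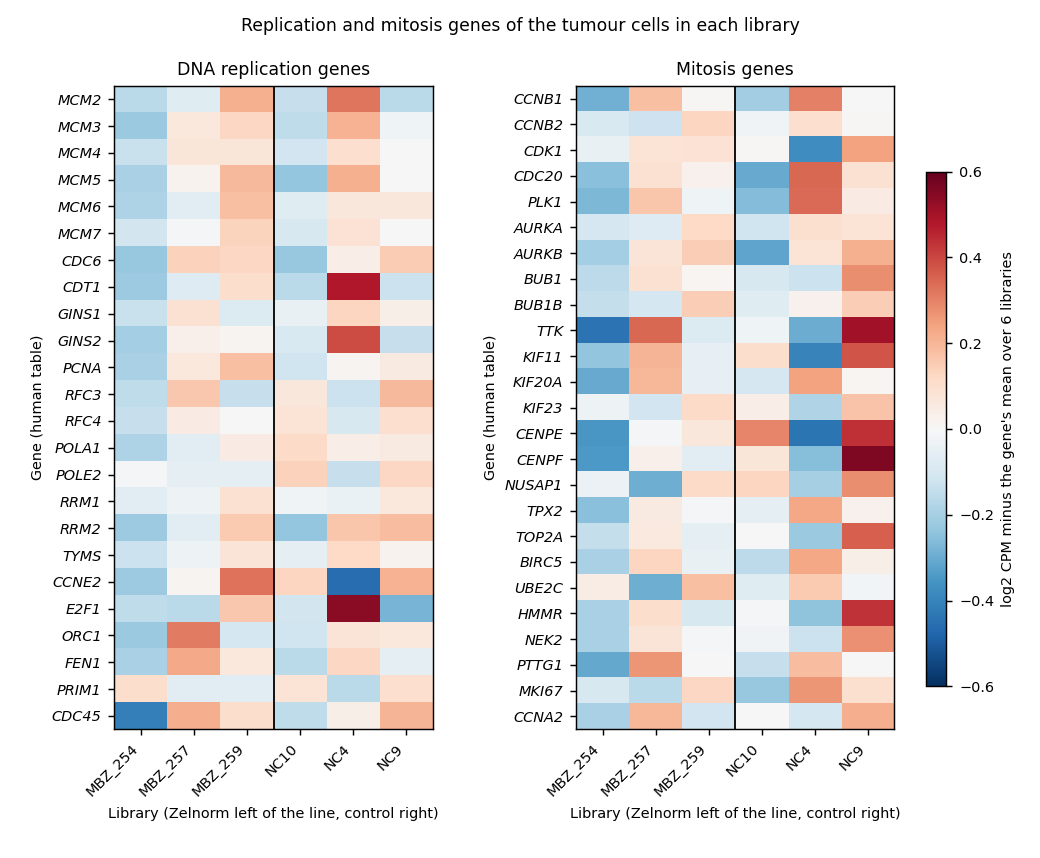
Each cell is a gene's log2 CPM in a library after its mean over the 6 libraries was subtracted, for the replication genes (left panel) and the mitosis genes (right panel), with Zelnorm libraries left of the line. MBZ_254 was lowest for 17 of 24 replication and 12 of 25 mitosis genes, and NC9 was highest for 13 of 25 mitosis genes.

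Of the licensing genes, CDT1, which helps to load the MCM ring, had the lowest fold change of the replication set. CDT1 (ENSG00000167513) had 24.2, 26.7 and 30.3 CPM in MBZ_254, MBZ_257 and MBZ_259, against 25.2, 39.3 and 25.8 CPM in NC10, NC4 and NC9. The control NC4 stood above the other 5 tumours, which overlapped. The log2 fold change was -0.15 (SE 0.19), and it was 0.09 without NC4. CDC6, the other loading factor, had 34.7, 44.8 and 44.3 CPM in Zelnorm tumours against 34.7, 41.8 and 45.1 CPM in control tumours. Its groups covered nearly the same range (log2 0.03, SE 0.14). ORC1, a subunit of the origin recognition complex, had a log2 fold change of 0.0035 (SE 0.18).

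The helicase genes overlapped throughout. MCM2 (ENSG00000073111), a subunit of the replicative helicase, had 85.2, 90.4 and 110 CPM in Zelnorm tumours against 86.5, 119 and 85.2 CPM in control tumours. NC4 and MBZ_259 were high and the other 4 tumours lay close together (log2 -0.02, SE 0.16). The other 5 MCM genes had log2 fold changes between -0.04 for MCM6 and 0.01 for MCM5. Of the GINS subunits, which activate the helicase, GINS2 had 14.3, 16.8 and 16.7 CPM in Zelnorm tumours against 15.4, 21.6 and 14.96 CPM in control tumours (log2 -0.12, SE 0.18). GINS1 had 15.9, 18.7 and 16.5 CPM in Zelnorm tumours against 17.0, 19.2 and 17.9 CPM in control tumours (log2 -0.08, SE 0.14). For GINS2 the control NC4 was again the highest tumour. CDC45, their partner, had a log2 fold change of -0.04 (SE 0.18).

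Among polymerase and clamp genes, POLA1, the catalytic subunit of polymerase alpha, had the smallest p of the replication set. POLA1 (ENSG00000101868) had 13.4, 14.5 and 15.7 CPM in Zelnorm tumours against 16.5, 15.7 and 15.8 CPM in control tumours. The ranges touched, with MBZ_259 just above the lowest control (log2 -0.13, SE 0.14). POLE2, a subunit of polymerase epsilon, had 74.7, 72.2 and 72.0 CPM in Zelnorm tumours against 82.7, 68.2 and 81.8 CPM in control tumours (log2 -0.09, SE 0.11). All 3 Zelnorm values lay inside the control range. PCNA (ENSG00000132646), the sliding clamp, had 85.8, 103 and 111 CPM in Zelnorm tumours against 90.3, 99.4 and 102 CPM in control tumours. The highest and the lowest tumour were both of the Zelnorm group (log2 0.04, SE 0.13). The clamp loaders RFC3 and RFC4 had log2 fold changes of -0.09 and -0.06, the primase PRIM1 of -0.02 and the flap nuclease FEN1 of 0.07.

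Genes of nucleotide supply and of S phase entry were as close. RRM1 and RRM2, both subunits of ribonucleotide reductase, had log2 fold changes of -0.00039 (SE 0.10) and -0.09 (SE 0.15), and TYMS, thymidylate synthase, of -0.05 (SE 0.11). RRM1 varied least of the 49 members, with a ratio of 1.12 between its highest and lowest tumour. E2F1 (ENSG00000101412), a transcription factor of S phase genes, had 30.6, 30.5 and 38.1 CPM in Zelnorm tumours against 31.5, 49.7 and 28.1 CPM in control tumours. NC4 alone was high (log2 -0.14, SE 0.21), and without it the log2 fold change was 0.15. E2F1 had the widest range of the replication set, 1.77 times between NC4 and NC9. CCNE2, a cyclin of S phase entry, had a log2 fold change of 0.07 (SE 0.21).

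Of the kinetochore genes, CENPF had the smallest p of all 49 members. CENPF (ENSG00000117724) had 65.5, 85.1 and 79.5 CPM in MBZ_254, MBZ_257 and MBZ_259, against 87.5, 69.8 and 123 CPM in NC10, NC4 and NC9. The control NC9 stood high, and the control NC4 lay below 2 of the 3 Zelnorm tumours. The log2 fold change was -0.28 (SE 0.19), and it was -0.03 without NC9. CENPE, a kinetochore motor, had 15.5, 19.7 and 20.8 CPM in Zelnorm tumours against 24.3, 14.6 and 26.9 CPM in control tumours (log2 -0.23, SE 0.22). Its lowest tumour was again the control NC4, and the log2 fold change was -0.05 without NC9. The checkpoint kinases BUB1, BUB1B and TTK had log2 fold changes of -0.05, -0.07 and -0.12.

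Spindle genes went the same way by small amounts. TPX2 (ENSG00000088325), which activates Aurora A on the spindle, had 98.9, 122 and 117 CPM in Zelnorm tumours against 113, 138 and 120 CPM in control tumours (log2 -0.13, SE 0.13). NUSAP1, a microtubule bundling protein, had 62.4, 52.1 and 69.3 CPM in Zelnorm tumours against 69.9, 55.7 and 77.5 CPM in control tumours (log2 -0.14, SE 0.15). In both genes the ranges overlapped, with the highest tumour a control. HMMR, a spindle protein and hyaluronan receptor, had 25.7, 31.6 and 27.5 CPM in Zelnorm tumours against 29.3, 24.8 and 39.8 CPM in control tumours. HMMR was high in NC9 alone (log2 -0.15, SE 0.18), with a log2 fold change of 0.07 without that tumour. The motor genes KIF11, KIF20A and KIF23 had log2 fold changes of -0.08, -0.09 and -0.02.

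The kinases and cyclins that carry a cell into mitosis did not lie higher in the Zelnorm tumours beyond their SE. CCNB1 (ENSG00000134057), the main mitotic cyclin, had 86.6, 120 and 106 CPM in Zelnorm tumours against 91.6, 131 and 106 CPM in control tumours (log2 -0.07, SE 0.16). CDK1 (ENSG00000170312), its kinase, had 62.9, 68.6 and 68.8 CPM in Zelnorm tumours against 65.3, 50.01 and 76.8 CPM in control tumours (log2 0.06, SE 0.15). The CDK1 values of Zelnorm tumours lay within those of the controls. PLK1, Polo-like kinase, had 34.1, 46.2 and 40.5 CPM in Zelnorm tumours against 34.3, 52.1 and 42.6 CPM in control tumours (log2 -0.09, SE 0.17). NC4 was the highest tumour, and the Zelnorm range lay almost wholly inside the control range. The Aurora kinases AURKA and AURKB had log2 fold changes of -0.04 and 0.0037. CCNB2 and CCNA2, further cyclins, were at -0.05 and -0.07. CDC20 and UBE2C, which serve the ubiquitin ligase of mitotic exit, were at -0.11 and -0.03, and its substrate PTTG1 (securin) at -0.02. BIRC5 (survivin), of the chromosomal passenger complex, and NEK2, a centrosome kinase, were at -0.07 and -0.09.

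The usual proliferation markers overlapped too. MKI67 (ENSG00000148773), the gene of the Ki-67 antigen, had 196, 186 and 227 CPM in Zelnorm tumours against 178, 251 and 224 CPM in control tumours. Its lowest tumour, NC10, and its highest, NC4, were both controls (log2 -0.10, SE 0.15). MKI67 averaged 203 ± 21.4 CPM in Zelnorm tumours and 218 ± 36.7 CPM in control tumours (SD, n = 3 each). TOP2A (ENSG00000131747), the topoisomerase that untangles chromosomes, had 276, 318 and 293 CPM in Zelnorm tumours against 306, 262 and 391 CPM in control tumours. The Zelnorm values lay inside the control range (log2 -0.11, SE 0.15), and without NC9 the log2 fold change was 0.06.

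**Figure D2:**
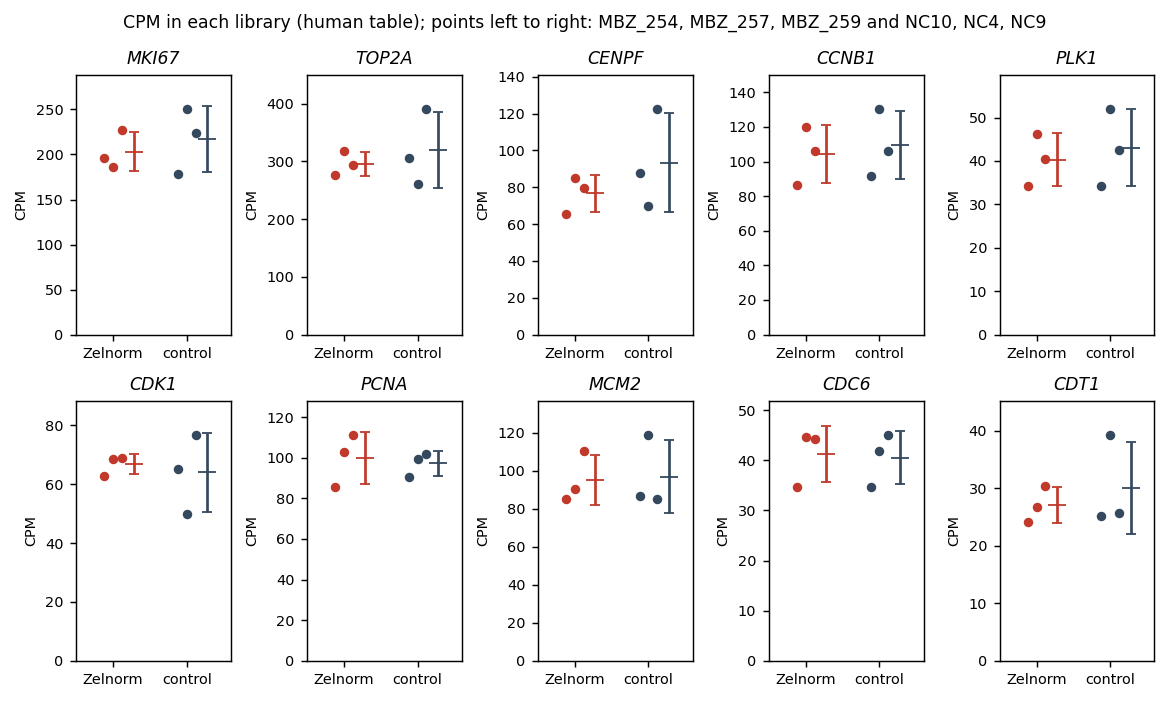
CPM of 10 members in the human table, 1 point per tumour, Zelnorm left of control, with bars for the mean ± SD over 3 tumours and axes that start at 0. In each of the 10 genes the groups overlap, and NC4 or NC9 is the highest or the lowest tumour in most panels.

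**Figure D3:**
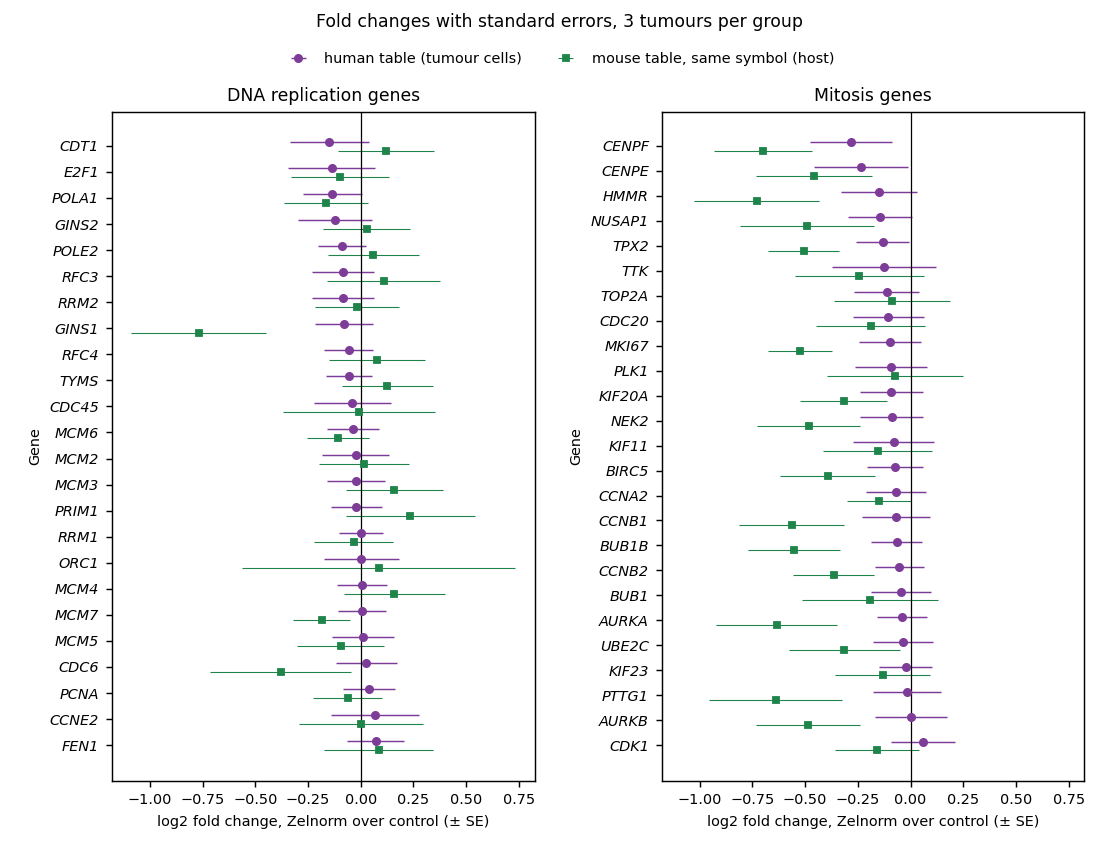
Log2 fold change, Zelnorm over control, with its SE for the replication genes (left) and the mitosis genes (right), circles for the human table and squares for the mouse gene of the same symbol. Human values lie between -0.28 (CENPF) and 0.07 (FEN1), while the mouse mitosis genes lie between -0.73 (HMMR) and -0.07 (PLK1).

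Replication and mitosis were then set apart within each tumour. The score of a set is its genes' mean log2 CPM, each gene centred on its 6 libraries, and no test was made on it. The replication score was -0.17, 0.03 and 0.08 in MBZ_254, MBZ_257 and MBZ_259, against -0.07, 0.09 and 0.03 in NC10, NC4 and NC9. The mitosis score was -0.19, 0.05 and 0.03 in the Zelnorm tumours, against -0.06, -0.01 and 0.20 in the control tumours. MBZ_254 was lowest on both scores, and the other 2 Zelnorm tumours lay inside the control range.

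The mitosis score minus the replication score was -0.03, 0.02 and -0.05 in the Zelnorm tumours, against 0.01, -0.10 and 0.16 in the control tumours. The Zelnorm values lay within the control range, between NC4 and NC9. The means were -0.02 ± 0.03 in Zelnorm tumours and 0.02 ± 0.13 in control tumours (SD, n = 3 each). So the mitosis genes did not stand higher relative to the replication genes in the Zelnorm tumours, and their difference was smaller than the spread among controls.

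**Figure D4:**
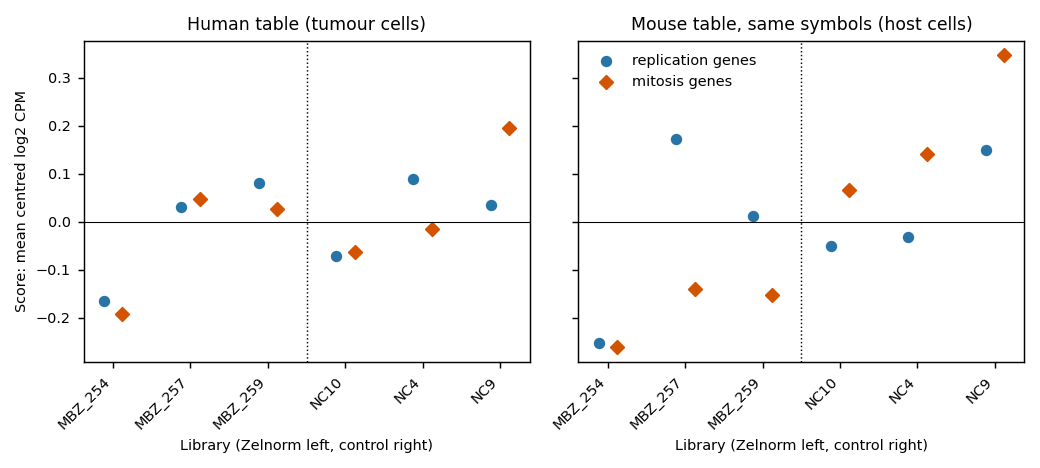
Score of the replication genes (circles) and the mitosis genes (diamonds) in each library, on a log2 scale, for the human table (left panel) and the same symbols in the mouse table (right panel). In the human table the groups overlap on both scores, and in the mouse table the 3 Zelnorm tumours have mitosis scores of -0.26 to -0.14, below the control values of 0.07 to 0.35.

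The mitosis shift depended on single tumours, and only the sign of its median held whichever library was left out. Leaving out MBZ_254 left 13 of 25 mitosis genes below 0 with a median of -0.0076, and leaving out NC9 left 15 of 25 with a median of -0.02. For the replication set the median turned to 0.04 without MBZ_254 and to 0.02 without NC4.

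Further genes of the same processes, from lists chosen with earlier results of these data known, gave a similar picture. They were read in the same libraries and are no independent support. Of 46 further replication genes 34 were below 0 and 12 above 0 (median -0.03), and of 59 further mitosis genes 48 were below 0 and 11 above 0 (median -0.07), with 0 passing edgeR's test in either direction. CDC25C, the phosphatase that activates CDK1, had 6.43, 7.20 and 7.999 CPM in Zelnorm tumours against 7.82, 9.35 and 9.26 CPM in control tumours (log2 -0.29, SE 0.17). The ranges touched, with MBZ_259 just above NC10. SMC4, a condensin subunit, lay at log2 -0.24 (SE 0.16), and CKAP2L, a spindle protein, at -0.23 (SE 0.20). PRIM2, a primase subunit, lay at log2 -0.18 (SE 0.14). CHAF1B, of a histone chaperone, lay at log2 -0.19 (SE 0.16), and GMNN (geminin), the inhibitor of CDT1, at 0.13 (SE 0.14).

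Of 18 G1 regulators and inhibitors of cyclin-dependent kinases, 8 were below 0 and 10 above 0, with a median of 0.02. CDKN1A (ENSG00000124762), the inhibitor p21, had 50.3, 45.8 and 65.4 CPM in Zelnorm tumours against 39.6, 41.6 and 38.4 CPM in control tumours. It was the 1 gene of this list whose groups did not overlap, against 2.52% of all human genes that lay higher without overlap. The log2 fold change was 0.43 (SE 0.14), which did not pass over all genes (edgeR adjusted p = 1.00). CCNG1 and CCNG2, atypical cyclins, had log2 fold changes of 0.18 (SE 0.15) and 0.16 (SE 0.16).

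The spread among the control tumours was wide for many members. The coefficient of variation of a mitosis gene over the 3 control tumours had a median of 16.4%, against 12.3% over the 3 Zelnorm tumours, and the controls were the more variable group for 17 of 25 mitosis genes. For the replication genes the medians were 12.6% in Zelnorm tumours and 10.4% in control tumours. TTK had the widest range of the members, 1.93 times between its highest tumour, NC9, and its lowest, MBZ_254.

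The controls NC4 and NC9 differed in opposite directions for different members, a contrast chosen after the values were seen. NC4 was above NC9 for 24 of the 49 genes, among them E2F1 (log2 0.82), CDT1 (0.61) and MCM2 (0.48). NC9 was above NC4 for the other 25, with NC4 minus NC9 at -0.88 for CENPE, -0.81 for CENPF and -0.78 for KIF11. The GC content of the longest coding transcript of the mouse gene of the same symbol had a median of 50.4% in the genes higher in NC4 and 44.4% in those higher in NC9. Across the 49 genes Pearson's r between this GC content and the difference was 0.73 (Spearman's rho 0.69), and across 12673 other tested genes it was 0.48 (rho 0.54). These are descriptions across genes of 2 libraries, and genes are not independent replicates. The GC content of the human transcripts was not used here. Against the log2 fold change of Zelnorm over control, r with GC content was 0.38 in the mitosis set and -0.28 in the replication set, and its part in the fold changes was not tested.

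**Figure D5:**
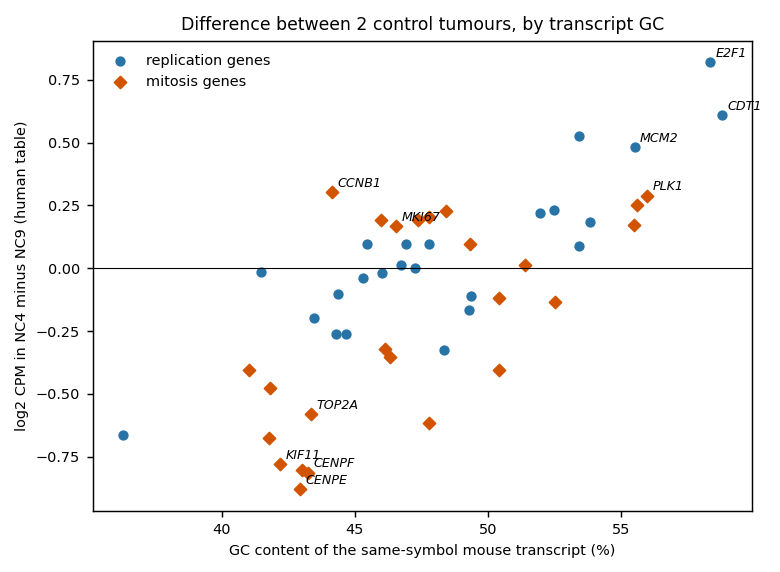
Difference in log2 CPM between the control tumours NC4 and NC9 in the human table against the GC content of the mouse transcript of the same symbol, with circles for the 24 replication and diamonds for the 25 mitosis genes. CENPE, of low GC content, lies far below 0 and E2F1, of high GC content, far above 0, with r = 0.73 over the 49 points and exceptions such as CCNB1 (44.2% GC, log2 0.30) and NEK2 (50.4% GC, log2 -0.40).

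In the mouse table, meant for the host cells of the same tumours, most of the mitosis genes lay lower in the Zelnorm tumours, without passing the test, while the replication genes lay on both sides of 0. The difference between the sets was not tested. All 25 mouse mitosis genes had a log2 fold change below 0, with a median of -0.39, where 46.1% of all tested mouse genes were below 0. In 12 of the 25 the 3 Zelnorm tumours lay below all 3 control tumours, against 3% of all tested mouse genes. Of the 24 mouse replication genes 11 were below 0 (median 0.0086), but without MBZ_257 it was 20 of 24 (median -0.11). In 2 of the 24, Gins1 and Mcm7, the Zelnorm tumours lay below the controls. None of the 49 passed edgeR's test, and 0 of 14459 mouse genes did (0%). At an unadjusted p under 0.05 there were 5 mitosis genes and 1 replication gene, all lower, against 1.75% of all mouse genes, or 1.03% on the lower side alone. DESeq2 called 6 mouse genes (0.0415%) and limma-voom 0 (0%), with none of the 49 among them.

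Mouse Mki67 (ENSMUSG00000031004) had 60.5, 56.1 and 58.9 CPM in MBZ_254, MBZ_257 and MBZ_259, against 78.9, 76.0 and 97.3 CPM in NC10, NC4 and NC9. The groups stood apart, with 58.5 ± 2.23 CPM in Zelnorm tumours and 84.1 ± 11.6 CPM in control tumours (SD, n = 3 each). The log2 fold change was -0.52 (SE 0.15, edgeR adjusted p = 1.00). Cenpf had 8.003, 7.59 and 10.4 CPM in Zelnorm tumours against 12.2, 13.6 and 16.5 CPM in control tumours (log2 -0.70, SE 0.23). Tpx2 had 17.8, 15.7 and 18.9 CPM in Zelnorm tumours against 24.2, 28.0 and 22.4 CPM in control tumours (log2 -0.51, SE 0.17). Neither gene's groups overlapped. Ccnb1 had 12.2, 7.40 and 12.2 CPM in Zelnorm tumours against 13.8, 17.6 and 15.9 CPM in control tumours (log2 -0.56, SE 0.25). Top2a had 215, 385 and 274 CPM in Zelnorm tumours against 282, 241 and 404 CPM in control tumours. Plk1 had 22.1, 55.1 and 32.8 CPM in Zelnorm tumours against 29.8, 43.2 and 42.1 CPM in control tumours. Top2a and Plk1 overlapped widely, with MBZ_257 high. Values of host cell markers stood as follows. Of 15 such markers 14 were in the mouse table and 13 were tested. The 14 summed to 12968 to 33237 CPM in Zelnorm tumours and 26589 to 44340 CPM in control tumours, with MBZ_257 lowest. Of the 13 tested, the fat cell genes Adipoq and Plin1 were the 2 with groups that did not overlap. Both lay lower in the Zelnorm tumours, where 3% of all tested mouse genes lay lower without overlap. Adipoq, the gene of adiponectin, had 10.3, 6.29 and 0.914 CPM in Zelnorm tumours against 15.1, 33.3 and 25.6 CPM in control tumours. Ptprc, the pan-leukocyte antigen, had 217, 208 and 175 CPM in Zelnorm tumours against 244, 128 and 196 CPM in control tumours, and Cd3e, a T cell gene, did not pass the filter. The muscle gene Myh4 had 0, 0.740 and 1209 CPM in Zelnorm tumours against 85.1, 517 and 299 CPM in control tumours, so MBZ_259 stood far above the other Zelnorm tumours. The 4 tested epithelial markers summed in the mouse table to 862, 1454 and 1195 CPM in Zelnorm tumours against 958, 994 and 928 CPM in control tumours, and all 4 had a log2 fold change above 0. Markers of leukocytes, vessels, fibroblasts and muscle overlapped between the groups, and the part of host cell makeup in the mouse mitosis values was not tested.

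Whether the change differed between mouse and human genes of one symbol was tested over 11128 pairs with the library as a block, a test chosen after the values were seen. It called 0 pairs (0%), with 178 or 1.6% at an unadjusted p under 0.05. Among these were the members AURKA, GINS1, HMMR and MKI67, each with a mouse change below the human one. For MKI67 the mouse minus the human log2 fold change was -0.43 (SE 0.18, edgeR adjusted p = 1.00), and for AURKA it was -0.59 (SE 0.23, adjusted p = 1.00). A different response of host and tumour cells was thus not shown for any member.

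The sources used here do not say how reads of near-identical human and mouse transcripts were divided. The mouse table took 23.4%, 15.1% and 19.7% of all named counts in MBZ_254, MBZ_257 and MBZ_259, against 19.3%, 22.3% and 19.0% in NC10, NC4 and NC9. Of the summed counts of the mitosis genes it took 10.6%, 7.10% and 8.39% in the Zelnorm tumours, against 9.44%, 10.9% and 9.99% in the control tumours. Of the replication genes it took 13.8%, 10.1% and 11.4% in the Zelnorm tumours, against 11.97%, 13.0% and 12.001% in the control tumours. MBZ_257 had the lowest mouse share on all 3 measures. For CCNB1 the mouse share was 4.32%, 1.02% and 2.71% in the Zelnorm tumours, against 3.44%, 3.87% and 3.34% in the control tumours. For PLK1 it was 17.2%, 16.6% and 16.4%, against 17.0%, 19.8% and 18.6%. The highest over the lowest share was 4.24 for CCNB1, 1.21 for PLK1 and 1.28 for TOP2A, where all named counts had 1.55. Over the 49 members this ratio ran from 1.16 for MCM4 to 18.7 for ORC1, which had 2 to 21 mouse counts. The part of misassigned reads in the mouse values was not tested.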

How the data were processed

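RNA was measured in 6 tumours, 3 per group. The authors deposited estimated counts per gene (expected counts, which need not be whole), in a human and a mouse table. The submitters' processing notes name the tools HISAT2 and StringTie, DESeq2 and edgeR, and the builds GRCm38 and GRCh38, without roles or versions. Whole numbers (tolerance 1e-06) were missing for 38.0% of nonzero human values and 27.0% of nonzero mouse values, and counts were rounded. Rows without a gene name held 0.407% to 0.518% of human and 0.317% to 0.468% of mouse counts and were left out. Columns were tied to groups by their prefix and carry no replicate number of the labels.

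For each table, Zelnorm over control was fitted by edgeR 4.0.16 (R 4.3.3) (filterByExpr, TMM scaling, two-sided quasi-likelihood test), with Benjamini-Hochberg adjustment over all tested genes. SEs come from the F statistic. Scores used log2 CPM with a prior count of 2. DESeq2 1.42.0, limma-voom (limma 3.58.1), RLE factors, library totals, no count filter and leaving out each library were alternatives. Mouse and human genes of one symbol were compared in edgeR by their species-by-treatment term, blocked on library, and this test and the GC content comparison were added with the data known. The edgeR fits were run on simulated counts with known changes larger than those of the members. Whether changes as small as the members' could be detected was not tested.

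Members and lists were chosen with earlier results of these data known. Genes given in full were the 6 members of each set with the smallest p, any member without overlap, and MKI67, TOP2A, CCNB1, CDK1, PLK1, PCNA, MCM2 and CDC6 for their known roles. From each further list up to 3 genes with the smallest p were named. Other members are given mainly by their fold change, and mouse genes were picked with their values known. Promoters are from RefSeq (GRCm38.p6) and mouse transcripts from GENCODE vM21. Human promoter and protein sequences were not used here.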

Additional observations from a re-analysis of the deposited data

How the results depend on the processing

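No member of either table passed an adjusted p of 0.05 in any of 12 settings, with a smallest adjusted p of 0.998 in the human and 0.75 in the mouse table. Over all genes the count of calls was 0 in both tables with edgeR, and without the count filter it was 61 human and 2 mouse genes. DESeq2 called 1 human and 6 mouse genes. Leaving out 1 library called 0 genes in each table. The number of replication members below 0 ran from 15 to 20 over the other settings and from 11 to 21 with 1 library left out, with medians from -0.08 to 0.04. The number of mitosis members below 0 was 23 or 24 over the other settings and ran from 13 to 24 with 1 library left out, with medians from -0.17 to -0.0076. For the mouse genes with 1 library left out, 21 to 25 mitosis genes were below 0, with medians from -0.48 to -0.33. Of the mouse replication genes 8 to 20 (20 without MBZ_257) were below 0, with medians from -0.11 to 0.10. The human scores were recomputed only with a prior count of 0.5 and with library totals, not with a library left out. Zelnorm minus control was -0.036 in the main setting, -0.036 and -0.053 in these 2 for replication. For mitosis it was -0.079 in the main setting, -0.079 and -0.096 in these 2. With 1 library left out, the log2 fold change of these members took both signs, from -0.18 to 0.080 for CCNB1, from -0.072 to 0.14 for CDC6, from -0.088 to 0.22 for CDK1, from -0.26 to 0.091 for CDT1, from -0.29 to 0.15 for E2F1, from -0.21 to 0.068 for GINS2, from -0.29 to 0.068 for HMMR, from -0.14 to 0.15 for MCM2, from -0.22 to 0.017 for MKI67, from -0.045 to 0.14 for PCNA, from -0.23 to 0.067 for PLK1 and from -0.24 to 0.065 for TOP2A. The cause was not tested. No paired analysis was possible because the columns carry no replicate number of the labels.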

Other observations

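Most further mouse mitosis genes outside the 25 also lay lower in the Zelnorm tumours. They were read in the same libraries, from lists chosen with earlier results known, and are no independent support. Of 56 tested, 46 were below 0 with a median log2 fold change of -0.31, and in 12 the Zelnorm tumours lay below all control tumours, where 3% of all tested mouse genes did. Racgap1, which helps to set the cleavage plane in cytokinesis, had 18.8, 18.3 and 18.1 CPM in MBZ_254, MBZ_257 and MBZ_259, against 25.3, 37.2 and 35.3 CPM in NC10, NC4 and NC9 (log2 -0.83, SE 0.19, edgeR adjusted p = 1.00). Nuf2, a subunit of the kinetochore complex that holds microtubules, had 5.21, 2.22 and 5.49 CPM in Zelnorm tumours against 8.82, 11.02 and 9.78 CPM in control tumours (log2 -1.17, SE 0.36, adjusted p = 1.00). Prc1, which bundles microtubules in the midzone, had a log2 fold change of -0.56 (SE 0.20). Of 45 further mouse replication genes 33 were below 0, with a median of -0.13, and in 6 of the 45 the Zelnorm tumours lay below all control tumours and in 1 above them.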
